A study of Drosophila melanogaster with 3 samples.

Results

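ZLD binding along the Delta (Dl) region of chromosome arm 3R was followed through the maternal-to-zygotic transition at 18 sites, of 16200 sites found in the whole series. The region was the 60 kb window chr3R:15140000-15200000 of the dm3 assembly, which holds the start of Dl and its upstream flank. Its sites were chosen by the deposited peak intervals, as every peak whose midpoint lay in the window, with midpoints within 150 bp joined. The window itself was selected on measured values too, because it contains a site with almost no reads in cycle 8 embryos. The ratios of coverage between stages are therefore given as descriptions.

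Wild-type Oregon R embryos were sorted by hand at 3 stages. The first pool covered mitotic cycles 8 to 9 (called cycle 8), the second cycles 13 to 14 (cycle 13) and the third late cycle 14. Chromatin was precipitated with affinity-purified anti-ZLD antibodies, from 3.7, 6.6 and 6 µg of chromatin in stage order. There was 1 library per stage, with 13496488, 18870755 and 17481411 mapped reads of 25 bp, so no test between stages could be made, and differences between stages and between libraries cannot be told apart. Input libraries were not used here.

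Zelda (ZLD) is a maternally supplied zinc-finger protein that recognises CAGGTAG and related TAGteam elements and acts before and during the activation of the zygotic genome. Dl encodes a transmembrane ligand of the Notch receptor. In the Drosophila embryo, Delta on a cell activates Notch on its neighbour, which restricts the choice of neural fate and helps to form the mesectoderm next to the mesoderm. In the RefSeq gene order Dl is followed on its upstream side by non-coding genes, CG43203 and then Ino80, which encodes a chromatin-remodelling ATPase.

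Coverage over the Dl region was higher after cycle 8, and the sites differed widely in how much they changed. The value at a site is the number of reads, each extended to 150 bp, over the position of highest summed coverage, scaled to 10000000 reads per library. Summed over the 18 sites it was 6490 in cycle 8 embryos, 12706 in cycle 13 embryos and 17528 in late cycle 14 embryos, a late cycle 14 sum 2.70 times that of cycle 8. At 14 of the 18 sites late cycle 14 coverage was at least 2-fold higher than cycle 8 coverage, against a background of 34.3% of all 16200 sites. At 2 sites it was at least 2-fold lower, against 39.7% of all sites. The log2 ratio, late cycle 14 over cycle 8, had a median of 1.32 in the 18 sites and -0.20 in all sites. Sites picked for a high late cycle 14 level had higher ratios throughout the series. The median was 1.35 at the 1837 sites of the series with a late cycle 14 coverage of 500 or more. It was 1.31 at the 8 such sites at Dl. Of these, 6 of the 8 at Dl were at least 2-fold higher, against 59.9% in the series. Among sites with a deposited peak at all 3 stages the median was 1.16 at 11 sites of Dl and 0.33 in the series. There, 8 of the 11 were at least 2-fold higher, against 32.3%.

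**Figure D1:**
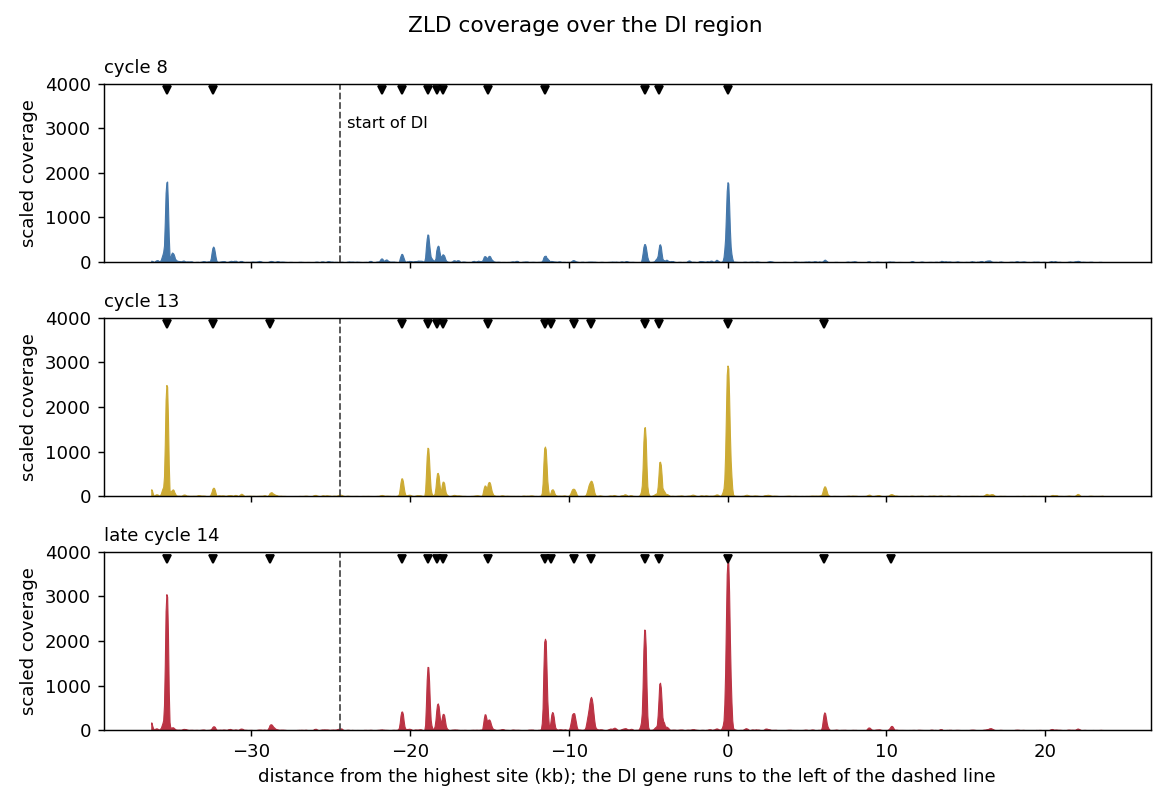
Scaled ZLD coverage over the window at the 3 stages, as the highest value in each 50-bp step against the distance in kb from the highest site. Triangles mark sites with a deposited peak at that stage, and the dashed line marks the start of Dl in the study's annotation. The 2 tallest peaks, at -35.3 and 0 kb, with 1779 and 1774 in cycle 8 embryos, are present throughout, while the group between -12 and -4 kb grows.

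The deposited lists held 12 peaks in the window in cycle 8 embryos, 16 in cycle 13 embryos and 17 in late cycle 14 embryos. Their median heights were 339.1, 360.3 and 392.7, against 113.7, 128.5 and 134.9 over the whole lists, and 10, 14 and 14 of them exceeded the median of their own list. Of the 18 sites, 11 had a peak in all 3 lists, against 31.8% of all sites. A further 5 sites had a peak in both cycle 13 and late cycle 14 embryos, 1 in late cycle 14 embryos only and 1 in cycle 8 embryos only. In the series 2784, 1448 and 4240 of the 16200 sites had these patterns, in that order. The site just inside the lower edge of the window, at 15140991, was one of the 2 highest of the region. The nearest site outside it, at 15139994, lay 6 bp beyond the edge and had 28.9 in cycle 8 embryos, 156.9 in cycle 13 embryos and 181.9 in late cycle 14 embryos. Beyond the uppermost site, at 15186659, the next site of any list was 69772 bp away, at 15256431.

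The start of Dl lay in a stretch without called peaks. By the study's annotation 3 sites were on the gene side of the start and 15 on the upstream side, and the flanking sites at 15147572 and 15154522 were 6950 bp apart. Dl runs from its start towards lower coordinates. In a promoter window that reached 500 bp above and 150 bp into the gene from the start, the highest coverage was 9.63 in cycle 8 embryos (exact 95% Poisson interval 5.13 to 16.5). It was 32.9 in cycle 13 embryos (25.2 to 42.1) and 41.2 in late cycle 14 embryos (32.2 to 51.9). These highest values were 2.17, 8.86 and 12 times the median coverage of the chromosome arms, and far below those of the strong sites on either side. A maximum over a window exceeds a typical single position, so these ratios do not measure enrichment. The mean coverage in the promoter window was 2.85, 13.9 and 16.8 in stage order, beside arm medians of 4.45, 3.71 and 3.43. In cycle 8 embryos the mean was thus below the arm median. Poisson intervals cover counting error only, and copies of 1 molecule made by PCR make them too narrow.

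The 2 highest sites of the region were strong at every stage. The site at 15140991, labelled intronic in Dl by the study, had a coverage of 1779 in cycle 8 embryos (1709 to 1852), 2492 in cycle 13 embryos (2421 to 2564) and 3051 in late cycle 14 embryos (2969 to 3134). Its late cycle 14 value was 1.71 times its cycle 8 value, under the 2-fold bound. The intergenic site at 15176332, far upstream of Dl, had 1774 (1703 to 1846), 2930 (2853 to 3008) and 3809 (3718 to 3902) in stage order, a late cycle 14 to cycle 8 log2 ratio of 1.10. At cycle 8 these sites had nearly the same coverage, with overlapping intervals, and ranked 297 and 300 among all 16200 sites. By late cycle 14 the upstream site was higher, and they ranked 167 and 89. Their share of the summed coverage of the region was 54.7% in cycle 8 embryos, 42.7% in cycle 13 embryos and 39.1% in late cycle 14 embryos.

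Sites on the gene side went in different directions. At 15143920, 2929 bp from the intronic site, coverage was 348.2 in cycle 8 embryos (317.5 to 381.2), 184.4 in cycle 13 embryos (165.5 to 204.8) and 84.7 in late cycle 14 embryos (71.6 to 99.5). Its log2 ratio was -2.04 (-2.32 to -1.77) for late cycle 14 over cycle 8, so that it decreased at each step. The next site, at 15147572, had 24.5 in cycle 8 embryos (16.8 to 34.3), where no peak was called, 87.4 in cycle 13 embryos and 131.6 in late cycle 14 embryos (115.1 to 149.7). It rose by a log2 ratio of 2.43, and was the only rising site of the 3 past the 2-fold bound. A further maximum without a called peak, at 15141345, was picked out after the profiles had been seen. It lay 354 bp from the strong intronic site, and had 213.4 in cycle 8 embryos (189.5 to 239.5), 137.2 in cycle 13 embryos and 62.9 in late cycle 14 embryos (51.7 to 75.8). Its log2 ratio was -1.76, while its strong neighbour gained coverage, with all reads counted. With 1 read per position and strand the ratio of that neighbour was -0.96. The distinct positions at 15141345 were 63 in cycle 8 embryos and 69 in late cycle 14 embryos.

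**Figure D2:**
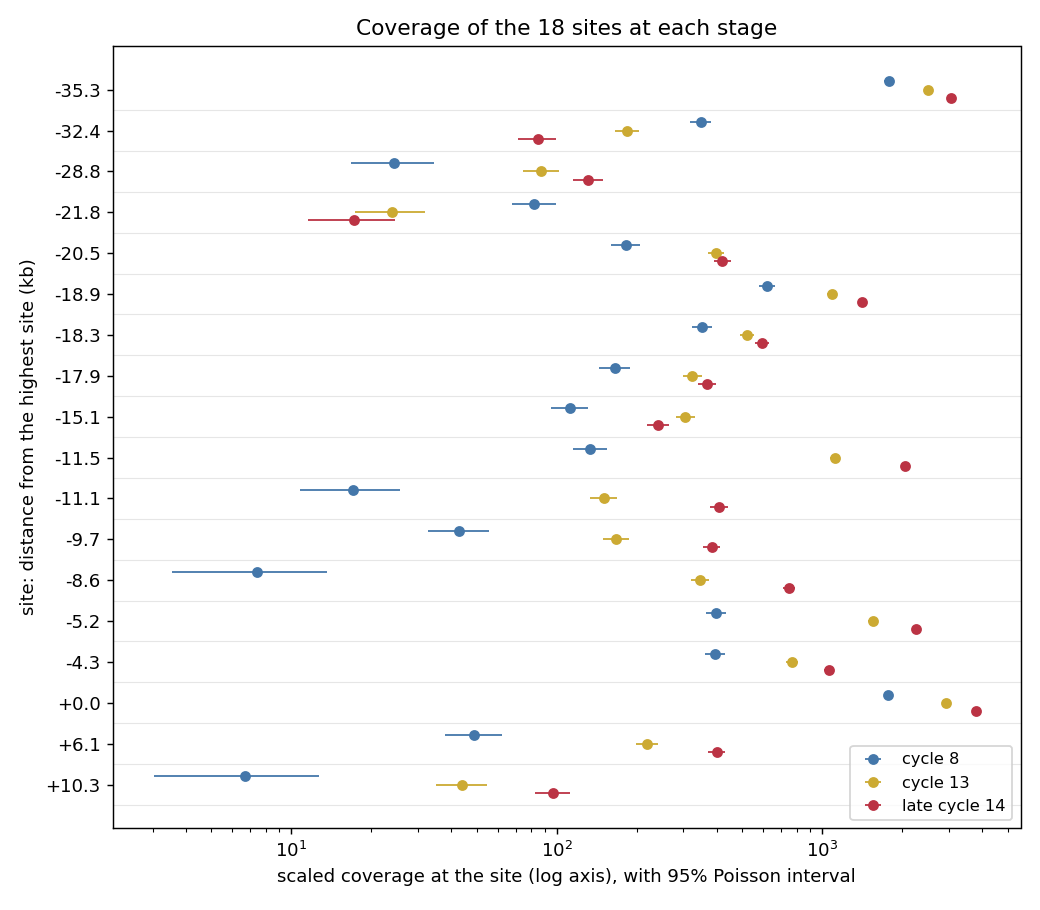
Scaled coverage (log axis) at each of the 18 sites at the 3 stages, with 95% Poisson intervals, ordered along the chromosome by distance in kb from the highest site. Late cycle 14 lies right of cycle 8 at all sites except those at -32.4 and -21.8 kb, and the widest separation is at -8.6 kb, with 7.41 in cycle 8 embryos and 748.8 in late cycle 14 embryos.

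The other falling site was the one nearest the start of Dl, 2587 bp away on the upstream side. At 15154522 coverage was 82.2 in cycle 8 embryos (67.7 to 99.0), 23.8 in cycle 13 embryos (17.4 to 31.9) and 17.2 in late cycle 14 embryos (11.6 to 24.5). Its late cycle 14 over cycle 8 log2 ratio was -2.26 (-2.89 to -1.67). It was the only site of the region called in cycle 8 embryos alone, with a deposited height of 79.3. Most of the fall came before cycle 13, and the interval of the late cycle 14 to cycle 13 ratio, -1.19 to 0.22, included 0.

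Next to it lay 5 sites between 15155801 and 15161275, all called at every stage. The strongest, at 15157439, had 620.9 in cycle 8 embryos (579.6 to 664.4), 1084 in cycle 13 embryos (1038 to 1132) and 1415 in late cycle 14 embryos (1359 to 1472), with a log2 ratio of 1.19. Its neighbour at 15158059 had 352.7, 520.4 and 592.1 in stage order, a log2 ratio of 0.75 that stayed under 2-fold. At 15155801 coverage was 181.5, 398.0 and 420.4 in stage order, and at 15158413 it was 165.2, 324.3 and 369.0. Log2 ratios in this group lay between 0.75 and 1.21 with all reads. With 1 read per position and strand they ran from -0.24 at 15157439 to 1.14 at 15161275. Placed at the mean of its peak midpoints, the site at 15161275 had a ratio of 1.84. The site at 15161275 was the only one of the 18 at which cycle 13, with 304.7 (280.3 to 330.7), was above both cycle 8, with 111.9 (94.7 to 131.2), and late cycle 14, with 241.4 (218.9 to 265.6). Its deposited intervals were among the widest of the region, up to 600 bp, and pooled coverage had 2 maxima in them. At 15161043 coverage was 134.1 in cycle 8 embryos, 236.9 in cycle 13 embryos and 356.4 in late cycle 14 embryos, and at 15161294 it was 134.1, 315.8 and 240.8. The maxima were equal in cycle 8 embryos, the second was higher in cycle 13 embryos and the first in late cycle 14 embryos.

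The 2 largest ratios of the region were in the group further upstream, between 15164821 and 15171106. At 15164821 coverage was 133.4 in cycle 8 embryos (114.6 to 154.3), 1113 in cycle 13 embryos (1066 to 1161) and 2050 in late cycle 14 embryos (1983 to 2118). This site was close to the median height of its list in cycle 8 embryos, at 1.26 times, and stood at 14.4 times the list median in late cycle 14 embryos. Its late cycle 14 coverage was 15.4 times its cycle 8 coverage, a log2 ratio of 3.94 (3.73 to 4.17), which 3.39% of all sites equalled or exceeded. A smaller peak 457 bp away, at 15165278, had 17.0 in cycle 8 embryos (10.8 to 25.6), 149.97 in cycle 13 embryos and 408.4 in late cycle 14 embryos, a log2 ratio of 4.58 (3.99 to 5.25). At 15166607 coverage was 43.0, 167.5 and 383.3 in stage order, a log2 ratio of 3.16. Neither of these smaller sites was in the cycle 8 list. At 15171106, which was in every list, coverage was 397.9 in cycle 8 embryos (364.9 to 433.0), 1547 in cycle 13 embryos (1491 to 1604) and 2249 in late cycle 14 embryos (2179 to 2320), a log2 ratio of 2.50. Its neighbour at 15172071 had nearly the same cycle 8 coverage, 395.7, but reached only 768.9 in cycle 13 embryos and 1061 in late cycle 14 embryos. With 1 read per position and strand the log2 ratio was 1.40 at 15164821, 0.13 at 15171106 and 0.27 at 15172071. By that count 15171106 no longer had a higher ratio than its neighbour at 15172071. In late cycle 14 embryos 297 and 278 of at most 300 positions were filled at 15171106 and 15172071.

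The nearly empty site for which the window was selected lay 8.6 kb from the highest site and had the largest ratio of the region. Its coverage was 7.41 in cycle 8 embryos (3.55 to 13.6), from 10 reads that started at 5 distinct positions and strands. At cycle 13 it was 347.1 (321.0 to 374.7), from 655 reads at 236 positions, and in late cycle 14 embryos it was 748.8 (708.8 to 790.5), from 1309 reads at 267 positions. The cycle 8 value was 1.67 times the median of the arms, and its upper limit was 1.82% of the late cycle 14 value. The log2 ratio was 6.66 (5.78 to 7.72) for late cycle 14 over cycle 8 and 5.55 (4.66 to 6.62) for cycle 13 over cycle 8. Only 9 of the 16200 sites, itself included, had a late cycle 14 to cycle 8 ratio as high. The near absence of reads did not depend on the exact position, because the highest cycle 8 coverage anywhere within 300 bp was 9.63, from 13 reads. Counted as reads overlapping 300 bp, the site had 29 reads in cycle 8 embryos, 1312 in cycle 13 embryos and 2584 in late cycle 14 embryos. The deposited peaks of the later stages, at 15167491 to 15167930 and 15167481 to 15167930, had heights of 346.6 and 752.3.

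**Figure D3:**
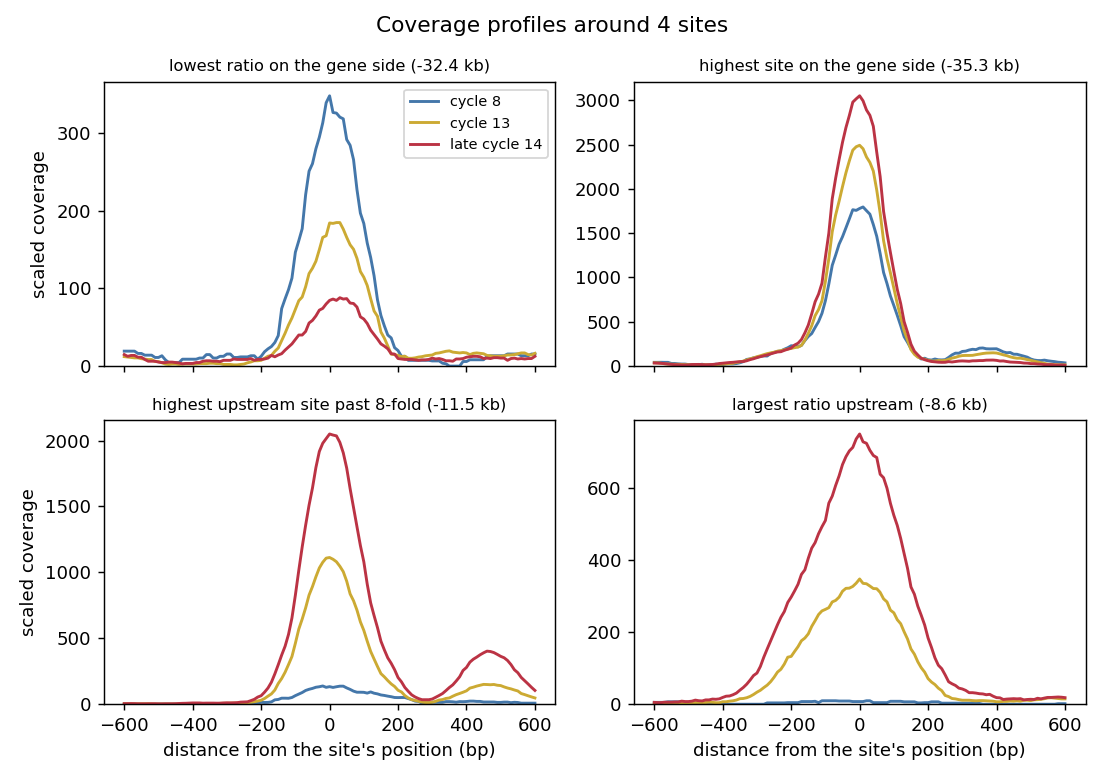
Scaled coverage within 600 bp of 4 sites at the 3 stages, each panel with its own linear scale. With all reads counted, the site at -32.4 kb falls at each stage and the site at -35.3 kb gains, with a falling maximum 354 bp to its right. At -11.5 kb a low cycle 8 peak precedes a tall one, and at -8.6 kb the cycle 8 line stays below 10 across the panel's central 300 bp on either side.

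Above the highest site 2 weaker sites were seen, neither in the cycle 8 list. At 15182435 coverage was 48.9 in cycle 8 embryos (37.8 to 62.2), 219.4 in cycle 13 embryos and 400.4 in late cycle 14 embryos, a log2 ratio of 3.03. At 15186659, the only site called in late cycle 14 embryos alone, coverage was 6.67 in cycle 8 embryos (3.05 to 12.7), 44.0 in cycle 13 embryos and 96.7 in late cycle 14 embryos (82.6 to 112.4). Its cycle 8 value came from 9 reads at 3 positions, and its log2 ratio of 3.86 had an interval of 2.90 to 5.01. All 6 sites of the region that were not in the cycle 8 list were at least 2-fold higher in late cycle 14 embryos, as were 80.1% of such sites in the series, a direction that the lists themselves favour.

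Summed over the 18 sites, the larger part of the gain in coverage was seen by cycle 13. From the cycle 8 to the cycle 13 library, 10 of the 18 sites were at least 2-fold higher and 1 was lower, against 32.1% and 26.4% of all sites. Between cycle 13 and late cycle 14, 4 sites were at least 2-fold higher and 1 was lower, against 4.1% and 25.8% of all sites. The 4 were 15165278, 15166607, the site at -8.6 kb and 15186659, all in the upstream flank and all absent from the cycle 8 list, with log2 ratios of 1.45, 1.19, 1.11 and 1.14. At these 4 sites, and also at 15182435, the rise in scaled coverage, though not in log2 ratio, was larger after cycle 13 than before it. At 17 of 18 sites the cycle 13 value was intermediate, against 77.9% of all sites. The median log2 ratio was 1.29 for cycle 13 over cycle 8 and 0.42 for late cycle 14 over cycle 13, beside 0.19 and -0.29 over all sites. These comparisons share libraries and are not independent of each other.

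**Figure D4:**
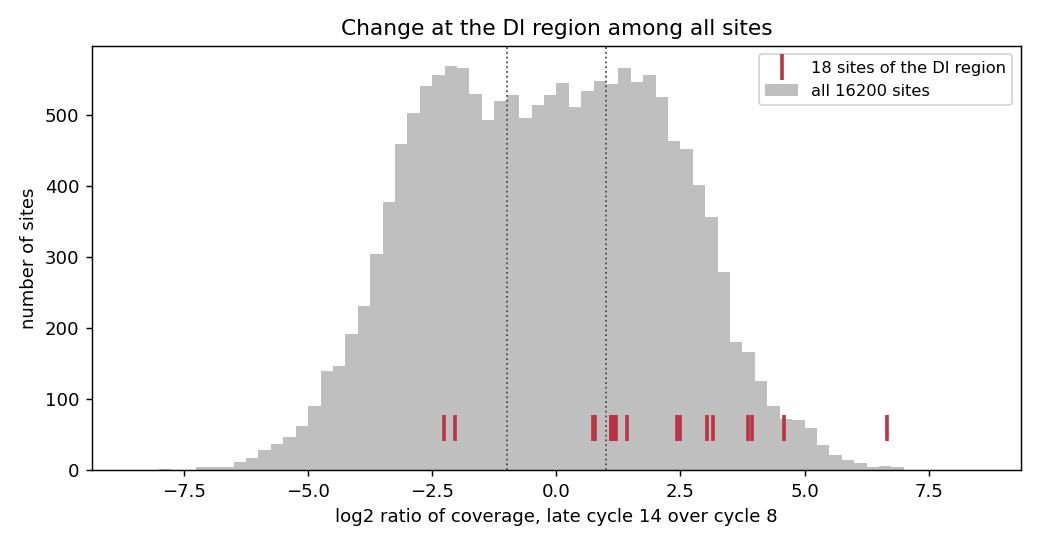
Number of sites by log2 ratio of coverage, late cycle 14 over cycle 8, for all 16200 sites (grey bars of 0.25), with the 18 sites of the Dl region as red ticks and dotted lines at 2-fold. Of the ticks, 14 lie at or above the upper line and 2 at or below the lower line, and the tick at 6.66 is near the end of the distribution.

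Adjacent sites were 354 to 6950 bp apart, with a median of 2862 bp, and in 10 of 17 adjacent pairs the late cycle 14 over cycle 8 log2 ratios differed by 1 or more. That was near the background, since 63.1% of the 10826 adjacent pairs of the series no more than 6950 bp apart differed as much. In 4 pairs (23.5%) the ratios had opposite signs, against 30.4% of the pairs of the series. Each such pair had to include 15143920 or 15154522, the only sites of the region with a negative ratio. With 1 read per position and strand the counts were 11 and 7 of 17 pairs, against 58.2% and 32.6% in the series. The largest contrast between neighbours with the same sign was between the site at -8.6 kb and 15171106, which were 3387 bp apart and had ratios of 6.66 and 2.50. Summed coverage was 3267 in late cycle 14 embryos against 2152 in cycle 8 embryos on the gene side, a 1.52-fold difference that rested on the intronic site at 15140991. Without that site the direction turned, with 216.2 in late cycle 14 embryos against 372.7 in cycle 8 embryos (0.58-fold). That turn rested on 15143920, which held 348.2 of the cycle 8 sum, while the other of the 2 sites, 15147572, rose. On the upstream side summed coverage was 14261 in late cycle 14 embryos against 4338 in cycle 8 embryos. This was a 3.29-fold difference, and 4.08-fold without the highest site.

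Reads between the sites changed less than those at the sites. At the 43100 positions of the window more than 500 bp from any site, the median coverage was 4.45 in cycle 8 embryos, 5.83 in cycle 13 embryos and 6.86 in late cycle 14 embryos, which corresponded to 6, 11 and 12 extended reads. The median of the chromosome arms over the same stages was 4.45, 3.71 and 3.43. The stretches between sites were thus at the level of the arms in cycle 8 embryos and at 2 times that level in late cycle 14 embryos. Of the 16559, 41013 and 51924 reads in the window, 69.0%, 76.4% and 78.6% lay within 150 bp of a site.

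Reads of the plus and minus strands flanked the sites that had 100 or more reads within 250 bp. There, reads of the minus strand started a median of 122 bp beyond those of the plus strand in cycle 8 embryos (12 sites). The median was 116 bp in cycle 13 embryos (17 sites) and 124 bp in late cycle 14 embryos (17 sites). The offsets ran from 37 to 154 bp, 75 to 148.5 bp and 46 to 140 bp in stage order. Plus-strand reads made up 36.2 to 56.3%, 41.8 to 54.5% and 38.8 to 57.1% of the reads at those sites. At the cycle 8 sites with fewer reads the offset ran from -108 bp at 15165278 to 229 bp at 15186659. At 15161275 the position of highest coverage within the deposited intervals was 15161302 in cycle 13 embryos and 15161045 in late cycle 14 embryos.

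Copies were most frequent in the cycle 8 library, where distinct combinations of position and strand were 23.4% of reads, against 50.9% in cycle 13 embryos and 40.99% in late cycle 14 embryos. With each combination counted once, 8 of the 18 sites were at least 2-fold higher in late cycle 14 embryos and 2 lower. With all reads these numbers were 14 and 2. Over all sites, 30.2% were higher and 36.1% lower with each combination counted once. Numbers of combinations were scaled to the library's total, 3160282 in cycle 8 embryos and 7165640 in late cycle 14 embryos. With that scaling the log2 ratio was -0.96 at 15140991, -0.24 at 15157439 and -0.97 at 15176332, and 4.56 at the nearly empty site. At the sites with negative ratios the unscaled number rose, from 255 to 297, 153 to 294 and 259 to 299 in that order. The unscaled number cannot exceed 300 at a site, and the site at 15176332 had 259, 300 and 299 in stage order. The part of copies in the differences between stages was not tested.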

How the data were processed

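ZLD ChIP-seq was analysed from 3 libraries, 1 per stage. The authors mapped 25-bp reads to dm3 with Bowtie 0.12.5 (submitters' processing notes), allowing 2 mismatches, extended reads to 150 bp, scaled each library to 10000000 reads and called peaks per library with Grizzly Peak. The deposited peak heights are a coverage signal, and the other deposited files list 1 mapped read per line. Uniquely placed tags were kept, so repeated sequence is not measured.

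Here, peak midpoints within 150 bp were joined over the whole genome (16200 sites). The position of a site was that of highest summed scaled coverage within 75 bp of its midpoints. Read numbers under 3 were set to 3 in log2 ratios, which touched none of the 18 sites. Intervals at 95% are exact Poisson for coverage and exact conditional binomial for ratios. The 2-fold bound is a size, not a test. Python 3.11.15, numpy 2.4.6, pandas 2.3.3, scipy 1.17.1 and matplotlib 3.10.9 were used, and the functions were tested on simulated data.

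Named sites were those with a coverage of 500 or more at some stage, the 3 largest rises and falls, the nearly empty site, the site nearest the start of Dl and sites of 1 list. Since only 2 sites fell, the third of the falls was 15158059, which had the lowest ratio of the others. Other sites were named after their values were seen. The members and lists were chosen with earlier results of these data known. Motifs, sequences and Notch pathway genes were not analysed here, as they need the dm3 sequence or its gene positions. Intronic and intergenic labels and the start of Dl come from the study's tables, which were used in part, and the gene order from RefSeq on Release 6. Alternatives were other positions, scalings, extensions, joining distances and presence rules, and 1 read per position and strand. The last was scaled to each library's total of distinct combinations of position and strand.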

Additional observations from a re-analysis of the deposited data

How the results depend on the processing

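With midpoints joined within 50 or 300 bp the region again had 18 sites, 11 of them with a peak in all 3 lists. Over all sites the shares were 28.0% and 32.8%. The number at least 2-fold higher in late cycle 14 embryos was between 13 and 15 of 18, and the number lower was 2, under the other positions, scalings and extension. Under the same settings between 33.4% and 37.6% of all sites were higher and between 36.6% and 40.2% lower. With 1 read per position and strand, 8 were higher and 2 lower, against 30.2% and 36.1% of all sites. The median log2 ratio by that count was 0.84 in place of 1.32. The ratio was then negative at 15157439 (-0.24), 15176332 (-0.97) and 15140991 (-0.96), where 294, 299 and 297 of at most 300 positions were filled in late cycle 14 embryos. These ratios were scaled to each library's total of distinct combinations, and before scaling the number of positions at these sites was higher than in cycle 8 embryos. Taking the mean of the midpoints as position gave a median of 1.64. Ratios of deposited heights, an alternative chosen after seeing the data, exist at the 11 sites in both lists, of which 8 were higher and 1 lower. Of the 5198 sites of the series with such a ratio, 31.2% were higher and 16.5% lower. The ratio at the site 8.6 kb from the highest lay between 4.56 and 7.97 over the alternatives. With 9 and 10 reads, the cycle 8 values at 15186659 and that site are limited by depth. With the peaks at or above the median cycle 8 height, 16 sites were left, 9 of them in all 3 lists, against 32.7% of the 8584 left in the series. By coverage of at least 2 times that of the arms, 16 of 18 sites were present at every stage, beside 92.5% of all sites. No paired analysis was possible because each stage had 1 library. Pairs of neighbours with 1 read per position and strand, and sums without the highest site, were also chosen after seeing the data.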

Other observations

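Coverage of 50 or more at some stage was reached at 9 further local maxima of the window that lay over 200 bp from every site position. One, at 15161046, belongs to the interval of the site at 15161275, and 15141345 is described with the gene-side sites. At 15154816, 294 bp from the falling site nearest the start of Dl, coverage was 58.5 in cycle 8 embryos (46.3 to 73.0), 6.89 in cycle 13 embryos and 6.86 in late cycle 14 embryos (3.55 to 12.0), a log2 ratio of -3.09 from 79 reads at 19 positions in cycle 8 embryos and 12 reads in late cycle 14 embryos. In the opposite direction, a maximum at 15185222 in the upper flank had 15.6 in cycle 8 embryos (9.63 to 23.8), 30.7 in cycle 13 embryos and 62.4 in late cycle 14 embryos (51.2 to 75.2). Both were picked out with their values known, and no test was made.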
